A study of Mus musculus with 2 samples.

Results

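The neural crest and head mesenchyme genes described here are 38 genes, of 43346 gene identifiers measured, in RNA of the embryonic mouse midbrain. They were listed by symbol, with no threshold on a measured value but with earlier results of these data known. All 38 matched 1 protein-coding gene identifier each. By role they are 6 crest regulators, 9 mesenchyme regulators, 6 signalling genes, 3 pigment genes and 14 genes of the extracellular matrix and of fibroblasts. The study profiled midbrain of B6NCrl mouse embryos of mixed sex at embryonic day 10.5, with no other genotype, treatment, tissue or stage. Replicate 1 was a pool of 69 embryos and replicate 2 a pool of 51 embryos, which the labels call biological replicates. RNA longer than 200 nt was taken from each pool, with a starting amount of 10 ng and added spike-in RNAs, and the assay is labelled total RNA-seq. The single group allowed no comparison of conditions, so levels, gene ratios within each library and differences between the libraries are given, without p-values.

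The neural crest leaves the dorsal edge of the neural tube, and its cells from the midbrain level spread below the skin of the head. There they form bone, cartilage and connective tissue of the face, sensory and glial cells, and pigment cells. The transcription factors of the AP-2 (Tfap2), Snail, Prrx and Alx families act in these cells and in the head mesenchyme that comes from them. Fibroblasts and the meninges, the membranes around the brain, make small proteoglycans, fibulins and fibrillins, which coat and order collagen and elastic fibres. Several of the genes also serve other cells: Tfap2b is active in developing midbrain neurons, and Mitf, Dct and Pmel in the retinal pigment epithelium.

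The libraries held 45531621 gene counts in replicate 1 and 50477634 in replicate 2, and the 38 genes took 0.118% and 0.0987% of them, 53597 and 49814 counts. The midbrain identity list was detected in both libraries for 7 of 8 genes, led by Otx2 with 138 TPM in replicate 1 and 123 TPM in replicate 2, Otx1 with 46.3 and 37.8 TPM, and Meis2 with 37.3 and 29.3 TPM. TPM is the count divided by effective transcript length and scaled to a fixed total, so that genes can be compared with each other. The highest genes of the neuroepithelial list stood above these, with 1047 and 958 TPM for Vim, 698 and 585 TPM for Hes5 and 622 and 397 TPM for Fabp7. In these bulk samples fewer cells of a type and less RNA per cell cannot be told apart.

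At a threshold of 1 TPM in both libraries, 28 of the 38 genes were detected, beside 58.1% of all 21474 protein-coding genes. The detected genes were 5 of the 6 crest regulators, 6 of the 9 mesenchyme regulators, 4 of the 6 signalling genes, 2 of the 3 pigment genes and 11 of the 14 matrix genes. Fbln1 stood highest at 145 ± 9.54 TPM (SD, n = 2), above 94.7% of protein-coding genes, followed by Lum at 80.5 ± 15.9 TPM (SD, n = 2) and Ednrb at 48.2 ± 16.8 TPM (SD, n = 2). The libraries of these 3 genes did not overlap with those of the next in order. Below them Snai1, Tfap2b, Fbln2, Prrx2 and Fbn2, at means of 20.9 to 28.0 TPM, overlapped with their neighbours in the order. The 10 genes that missed the threshold in 1 or both libraries were Tfap2e, Barx1, Pitx1, Osr2, Erbb3, Edn1, Mitf, Eln, Thy1 and Mfap5.

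**Figure D1:**
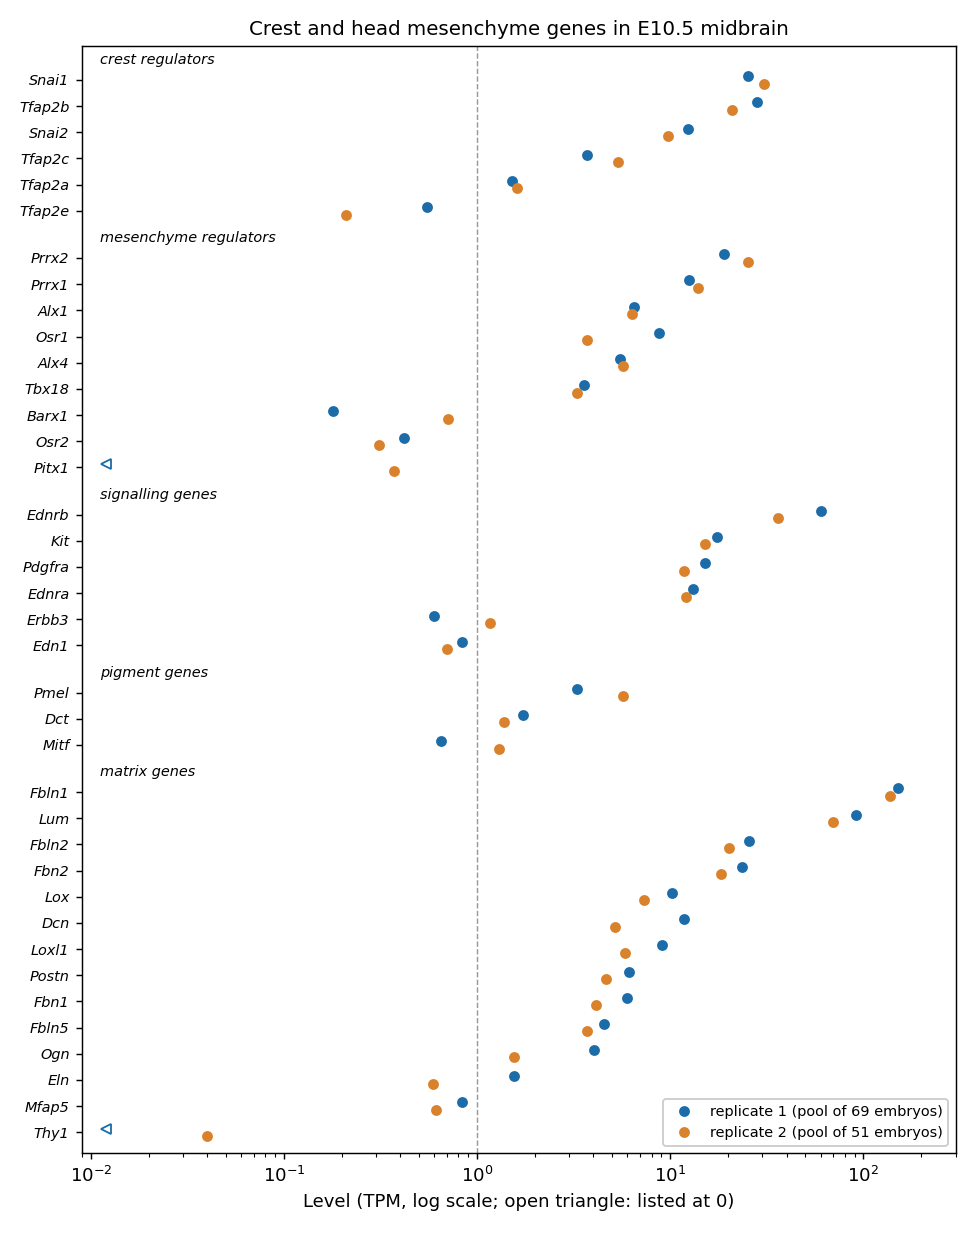
Level of each of the 38 genes in TPM on a log axis, grouped by role and ordered by mean, with 1 point for replicate 1 and 1 for replicate 2 and a dashed line at 1 TPM; open triangles mark genes listed at 0. Fbln1 at 151 and 138 TPM and Lum at 91.8 and 69.3 TPM lie to the right of all others, and each role spans from below or near 1 TPM upward.

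Among the crest regulators, Snai1 and Tfap2b led in both libraries. Snai1, a zinc-finger repressor of cell adhesion genes that acts when cells leave an epithelium, had 25.4 TPM in replicate 1 and 30.7 TPM in replicate 2. Snai2, its relative and in mouse a marker of migrating crest, had 12.4 and 9.68 TPM. Snai1 was therefore the higher of the pair in both libraries, 2.04-fold in replicate 1 and 3.17-fold in replicate 2.

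Tfap2b had 28.3 TPM in replicate 1 and 20.8 TPM in replicate 2, and Tfap2a, the AP-2 factor best known for crest and surface ectoderm, had 1.52 and 1.60 TPM. The ratio of Tfap2b over Tfap2a was 18.6 in replicate 1 and 13.0 in replicate 2. Tfap2c, an AP-2 factor of ectoderm and early germ cells, had 3.72 and 5.33 TPM, which is 2.45 and 3.33 times Tfap2a. Tfap2e had 0.55 TPM from 32 counts in replicate 1 and 0.21 TPM from 14 counts in replicate 2, below the threshold in both. The 4 genes thus kept 1 order in both libraries, Tfap2b first and Tfap2e last. Of the summed TPM of the 6 crest regulators Tfap2b took 39.4% in replicate 1 and 30.5% in replicate 2, and Snai1 took 35.3% and 44.9%. The TPM of Tfap2b includes retained-intron transcripts, which were looked at after its values were seen. Of it Tfap2b-205 held 25.7% in replicate 1 and 14.8% in replicate 2, and Tfap2b-203 held 10.5% and 13.4%.

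The promoter of Snai1 is shown because it holds letters of both regulator families in this group: the E-box that Snail proteins bind and the core motif of AP-2 proteins. The 250 bases before its start (chr2:167537945-167538194, plus strand, RefSeq, GRCm38.p6) carry CACCTG beginning 126 bases before the start and GCCATTGGC beginning 87 bases before it, in capitals.
Snai1 promoter: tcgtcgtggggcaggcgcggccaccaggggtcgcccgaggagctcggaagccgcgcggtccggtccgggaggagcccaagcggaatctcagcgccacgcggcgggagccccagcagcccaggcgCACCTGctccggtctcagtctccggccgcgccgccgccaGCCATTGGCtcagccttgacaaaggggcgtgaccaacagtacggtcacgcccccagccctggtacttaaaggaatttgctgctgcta
The E-box (CAGGTG or CACCTG, both strands) was in 20.2% of all 32851 windows of 300 bases around a start, and the AP-2 motif GCCNNNGGC, which reads the same on both strands, was in 16.6%. Windows were found for 21 of the 38 genes. Of these 21 the AP-2 motif was in 8, Ednrb, Fbln1, Fbn1, Kit, Mitf, Postn, Prrx2 and Snai1, which is 38.1% against 18.5% of 27025 genes, and the E-box was in 2, Mitf and Snai1. The matches are a description of letters and do not show binding.

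The mesenchyme regulators were led by the paired-type homeobox genes Prrx2 and Prrx1, which mark head and limb mesenchyme. Prrx2 had 19.0 TPM in replicate 1 and 25.2 TPM in replicate 2, and Prrx1 had 12.5 and 13.99 TPM, so that Prrx2 was 1.52 and 1.80 times as high. Noncoding transcripts enter this ratio. Coding transcripts held 61.0% of the TPM of Prrx2 in replicate 1 and 51.1% in replicate 2, and 60.45% and 61.07% of that of Prrx1. Of the counts they held more, 79.6% and 73.0% for Prrx2 and 86.6% and 86.9% for Prrx1. Alx1 and Alx4, homeobox genes needed for the frontonasal skeleton, were close to each other and between the libraries. Alx1 had 6.46 and 6.33 TPM, and Alx4 had 5.48 and 5.72 TPM, a ratio of 1.18 in replicate 1 and 1.11 in replicate 2. Alx4 overlaps Ext2 on the opposite strand, a gene at 66.0 and 61.4 TPM, and since the use of strand in counting is not known, reads of the overlap cannot be told apart.

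Tbx18, a T-box gene of pericytes and other mural and mesenchymal cells, had 3.59 TPM in replicate 1 and 3.29 TPM in replicate 2. Osr1, a zinc-finger gene of mesenchyme and connective tissue (chr12:9570116-9581500), had 8.70 TPM in replicate 1 and 3.71 TPM in replicate 2, from 488 and 238 counts. Its relative Osr2, a gene of the palate and tooth mesenchyme, had 0.42 and 0.31 TPM, so that Osr1 was 20.7 and 11.97 times as high. Osr1 was the only regulator at or above 1 TPM with libraries 2-fold or more apart, at 2.22-fold.

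Barx1 and Pitx1, homeobox genes of the jaw and oral region, were near the limit of detection. Barx1 had 7 counts in replicate 1 and 31 counts in replicate 2, or 0.18 and 0.71 TPM. Pitx1 was at 0 counts in replicate 1 and 29 counts in replicate 2, where it was listed at 0.37 TPM. A count of 0 in replicate 1 leaves room for a floor of 3 counts, or 0.0706 TPM, and floors and intervals cover counting error only. Both genes had their higher value in replicate 2, on 31 counts or fewer.

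The signalling genes were led by Ednrb, the receptor for endothelins that melanoblasts and enteric crest need. Ednrb (chr14:103814625-103844402) had 60.1 TPM in replicate 1 and 36.3 TPM in replicate 2, a 1.57-fold ratio of scaled counts. Ednra, the receptor through which endothelin 1 patterns the lower jaw, had 13.2 and 12.1 TPM, so that Ednrb was 4.57 times as high in replicate 1 and 2.996 times in replicate 2. Edn1, the ligand that acts through Ednra, was below the threshold with 0.83 and 0.70 TPM from 55 and 53 counts. Edn3, the ligand best known to act through Ednrb and named here after its values were seen, had 7.03 TPM in replicate 1 and 8.12 TPM in replicate 2. Each receptor was thus higher than both ligands in each library.

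Kit, the receptor of stem cell factor in melanoblasts, germ cells and blood progenitors, had 17.4 TPM in replicate 1 and 15.1 TPM in replicate 2. Pdgfra, a receptor of platelet-derived growth factor in mesenchyme and later in oligodendrocyte precursors, had 15.2 and 11.7 TPM. Kit and Pdgfra lie next to each other on chromosome 5, 376.7 kb apart with no coding gene between them. Erbb3, the neuregulin receptor of migrating crest and Schwann cell precursors, had 0.60 TPM from 105 counts in replicate 1 and 1.16 TPM from 230 counts in replicate 2. Erbb3 was thus the one receptor among the 5 below 1 TPM on average.

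A list of 11 further signalling genes, among them ligands and receptors that pair with these genes, had 10 detected in both libraries. Its highest genes were Ece1, the protease that activates endothelins, with 26.8 TPM in each library, the growth factor gene Fgf8 with 21.7 TPM in replicate 1 and 24.7 TPM in replicate 2, and Pdgfrb with 19.4 and 18.4 TPM. None of the 10 genes averaging 1 TPM or more was 2-fold apart between the libraries.

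Kit was measured as 2 main coding transcripts whose coding bases, 2937 and 2925, differ by 12 at the end of an exon, which add 4 codons to the part of the receptor outside the cell. Their starts also lie 39 nt apart. The form with the added codons, Kit-201, took 47.2% of the gene's TPM in replicate 1 and 55.9% in replicate 2, and Kit-204, without these bases, took 39.6% and 36.0%. The bases are shown in capitals (chr5:75639147-75639158, plus strand, GENCODE M21, GRCm38) within 30 bases of the transcript on either side, since they are the coding difference between the forms.
Kit-201: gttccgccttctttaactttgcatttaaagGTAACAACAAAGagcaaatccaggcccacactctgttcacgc
The form with the insert was the higher one in both libraries, and the shares of the other main form differed by less than those of Kit-201.

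Ednrb was likewise split between transcripts, here with the same 1326 coding bases and starts 706 nt apart. Ednrb-201, from the outer start, took 58.7% of the TPM in replicate 1 and 71.1% in replicate 2, and Ednrb-202 took 41.3% and 28.9%. In TPM, Ednrb-202 had 24.8 in replicate 1 and 10.5 in replicate 2, and Ednrb-201 had 35.3 and 25.8. Both transcripts were higher in replicate 1, and the inner-start form was further apart between the libraries.

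The pigment genes were low. Pmel, the gene of the fibril protein of the pigment granule, had 3.27 TPM in replicate 1 and 5.70 TPM in replicate 2, from 195 and 389 counts. Dct, an enzyme of melanin synthesis, had 1.72 and 1.38 TPM from 109 and 100 counts. Mitf, the regulator of pigment cell genes, had 0.65 TPM from 63 counts and 1.29 TPM from 114 counts. Pmel and Mitf were higher in replicate 2, whereas the interval of Dct spanned equal levels (log2 ratio of replicate 1 over replicate 2 of 0.24, interval -0.17 to 0.64). Pmel overlaps Cdk2 by 837 nt on the opposite strand, a gene at 86.7 and 84.9 TPM, so its level is read with that limit, and it lies 114.5 kb from Erbb3 with 4 coding genes between.

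For Mitf the deposited posterior mean reached 17.5 TPM in replicate 1 and 16.0 TPM in replicate 2, far above its TPM. Nearly all of it, 16.7 TPM in replicate 1, came from a transcript of 101 nt with an effective length of 2 nt and no counts, so the posterior mean of this gene says nothing about its level. Its counts, looked at after the values of the gene were seen, came mainly from 2 starts. The transcript from the upstream start, Mitf-202, had 47.0 counts in replicate 1 and 70.6 in replicate 2, and Mitf-201, from the downstream start that pigment cells of the crest use, had 14.2 and 24.7 counts. A retained-intron transcript from the upstream start, Mitf-206, had 1.83 and 18.8 counts, or 0.05 TPM in replicate 1 and 0.44 TPM in replicate 2, so it made up much of the difference in the gene's TPM.

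The promoters of these starts and of Dct are shown because Mitf and its targets are defined by short elements there. In the downstream Mitf promoter (chr6:97991533-97991782, plus strand) the capitals mark the cAMP response element TGACGTCA, which begins 153 bases before the start. In the Dct promoter (chr14:118052247-118052496, minus strand) they mark the M-box, TCATGTG or its complement CACATGA, the longer E-box that Mitf binds, beginning 232 and 151 bases before the start. The upstream Mitf promoter (chr6:97806808-97807057, plus strand) held none of the motifs searched. All are 250 bases from RefSeq on GRCm38.p6.
Mitf downstream promoter: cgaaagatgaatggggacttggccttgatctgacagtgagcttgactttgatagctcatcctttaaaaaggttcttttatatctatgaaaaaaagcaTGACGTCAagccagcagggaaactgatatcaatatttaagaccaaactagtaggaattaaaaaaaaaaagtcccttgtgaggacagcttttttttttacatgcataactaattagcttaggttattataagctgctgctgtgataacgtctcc
Mitf upstream promoter: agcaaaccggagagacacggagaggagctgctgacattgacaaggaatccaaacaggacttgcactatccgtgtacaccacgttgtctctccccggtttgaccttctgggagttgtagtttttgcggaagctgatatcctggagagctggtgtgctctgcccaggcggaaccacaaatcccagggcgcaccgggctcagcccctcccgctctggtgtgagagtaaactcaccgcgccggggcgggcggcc
Dct promoter: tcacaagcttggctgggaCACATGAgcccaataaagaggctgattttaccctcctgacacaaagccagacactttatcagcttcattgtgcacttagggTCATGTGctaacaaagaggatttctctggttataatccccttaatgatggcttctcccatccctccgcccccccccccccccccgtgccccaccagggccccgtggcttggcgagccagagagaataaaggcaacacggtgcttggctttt
The cAMP response element was in 1.79% of all 32851 windows and the M-box in 3.77%. Among the 21 genes with windows the M-box was in Dct alone and the cAMP response element in Mitf alone.

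Genes of pigment and eye cells outside the 38 are given beside this group, since Pmel, Dct and Mitf are shared with them. Of 9 other pigment genes 1 was detected in both libraries, Rab38, with 3.45 TPM in replicate 1 and 4.38 TPM in replicate 2. Trpm1, a channel of pigment cells, had 0.34 and 5.01 TPM, and Gpnmb had 0.64 and 0.53 TPM. The mean of Trpm1 reached 1 TPM through replicate 2 alone. The summed TPM of the 9 genes was 5.16 in replicate 1 and 11.3 in replicate 2, and 1 of them was listed at 0 in replicate 2.

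Of 8 genes of the eye field and retinal pigment epithelium, 4 were detected in both libraries, and their summed TPM was 37.1 in replicate 1 and 34.5 in replicate 2, with 1 listed at 0 in each. Lhx2, which the midbrain also uses, was highest with 24.5 and 19.9 TPM. Rax had 2.99 and 5.73 TPM and Six6 had 0.56 and 1.55 TPM, by scaled counts 2.02-fold and 2.93-fold higher in replicate 2. Six6 passed the threshold on the mean through replicate 2 alone, where it is higher. Six3 went the other way, with 6.70 and 3.41 TPM. The part of these cells in the higher Pmel and Mitf of replicate 2 was not tested.

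The matrix genes were the largest group in summed TPM, with Fbln1 and Lum taking most of it. Fbln1, a fibulin of basement membranes and elastic fibres (chr15:85205949-85286535), had 151 TPM in replicate 1 and 138 TPM in replicate 2, which was 43.7% and 49.4% of the sum of the 14 matrix genes. Fbln2 had 25.7 and 20.1 TPM, and Fbln5, a fibulin that guides elastin onto fibres, had 4.55 and 3.72 TPM. Fbln1 was 5.89 and 6.88 times Fbln2, and 33.3 and 37.1 times Fbln5. These ratios use all transcripts of a gene. Coding transcripts held 58.4% and 51.8% of the TPM of Fbln2, and 80.7% and 76.8% of its counts. The order of the fibulins was the same in both libraries.

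Lum, Dcn and Ogn are small leucine-rich proteoglycans that bind collagen fibrils. Lum (chr10:97565128-97572703) had 91.8 TPM in replicate 1 and 69.3 TPM in replicate 2, which was 26.5% and 24.8% of the matrix sum. Dcn (chr10:97479609-97518143), 47.0 kb from Lum with no coding gene between, had 11.7 TPM in replicate 1 and 5.16 TPM in replicate 2. Ogn (chr13:49608046-49624501) had 4.02 and 1.55 TPM, and lies within Cenpp on the opposite strand, a gene at 28.2 and 33.8 TPM. Lum exceeded Dcn 7.82-fold in replicate 1 and 13.4-fold in replicate 2, and Ogn 22.8-fold and 44.7-fold. Both ratios were lower in replicate 1, and Dcn and Ogn differed between the libraries by more than Lum did.

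Fibrillins form the microfibrils on which elastin is laid down. Fbn2, the fibrillin most made before birth, had 23.5 TPM in replicate 1 and 18.3 TPM in replicate 2, and Fbn1 had 5.96 and 4.10 TPM, so that Fbn2 was 3.95 and 4.46 times as high. Eln, the elastin gene (chr5:134702593-134747323), had 1.55 TPM from 113 counts in replicate 1 and 0.59 TPM from 49 counts in replicate 2. Mfap5, a microfibril protein, had 0.83 and 0.61 TPM from 28 and 11 counts. Both fibrillin genes were thus higher than elastin in each library. Mfap5 was lower than elastin in replicate 1 and close to it in replicate 2.

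The lysyl oxidases cross-link collagen and elastin. Lox had 10.2 TPM in replicate 1 and 7.29 TPM in replicate 2, and Loxl1 had 9.11 and 5.83 TPM, a ratio of 1.12 and 1.25. Postn, a matrix protein of the periosteum and of heart valves, had 6.14 and 4.64 TPM. Thy1, a surface protein of fibroblasts and of mature neurons, was at 0 counts in replicate 1 and 2 counts in replicate 2, both at or under the floor of 3 counts. The fibroblast marker Thy1 was therefore not detectable at this depth, while 11 of the other 13 genes were detected in both libraries.

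Postn is known for exons that are skipped or kept together with age and tissue. Postn-204, which lacks both exons shown here, took 50.7% of the gene's TPM in replicate 1 and 69.1% in replicate 2. Postn-203, with an exon of 81 bases (27 codons; chr3:54380412-54380492, plus strand), took 25.6% and 19.7%. Postn-201, with an exon of 84 bases (28 codons; chr3:54385671-54385754, plus strand), took 19.7% and 10.5%. The capitals mark each exon within 30 bases of its transcript on either side (GENCODE M21, GRCm38).
Postn-203: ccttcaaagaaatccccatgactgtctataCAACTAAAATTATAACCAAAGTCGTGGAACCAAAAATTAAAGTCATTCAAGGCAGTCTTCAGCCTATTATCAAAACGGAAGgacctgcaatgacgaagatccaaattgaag
Postn-201: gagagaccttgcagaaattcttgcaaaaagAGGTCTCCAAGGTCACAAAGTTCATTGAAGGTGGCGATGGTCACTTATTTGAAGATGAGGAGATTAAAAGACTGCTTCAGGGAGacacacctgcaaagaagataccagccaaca
The form without the exons was the largest in both libraries, and the forms with either exon had larger shares in replicate 1, on 143 and 95.01 counts for Postn-203 and 110 and 50.5 for Postn-201.

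The start of these transcripts, which begin within 16 nt of each other, lies behind a TATA box, TATAAA, in capitals in the 250 bases before it (chr3:54360857-54361106, plus strand, RefSeq, GRCm38.p6), which begins 26 bases before the start.
Postn promoter: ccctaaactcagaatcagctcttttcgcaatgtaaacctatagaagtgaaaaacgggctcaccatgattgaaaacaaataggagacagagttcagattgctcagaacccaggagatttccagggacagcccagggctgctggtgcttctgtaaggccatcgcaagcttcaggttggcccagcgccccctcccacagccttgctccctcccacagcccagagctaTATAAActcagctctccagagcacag
TATAAA was in 8.32% of all windows, and among the 21 genes in Ogn and Postn.

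With the transcripts of each gene ranked by mean share, 7 genes averaging 5 TPM or more had a second-ranked transcript with at least 15% of the TPM in both libraries. Besides Kit, Ednrb and Postn these were Prrx1, Prrx2, Fbln2 and Lox. Prrx1-201, with 735 coding bases, took 36.5% in replicate 1 and 37.3% in replicate 2, and Prrx1-204, with 600 coding bases, took 23.9% and 23.8%. A noncoding transcript, Prrx1-205, took 37.5% and 37.0%, so the 3 shares of Prrx1 differed by less than 1 percentage point between the libraries. The retained-intron transcript Prrx2-203 took 30.5% and 33.1%, and Fbln2-206 took 40.7% and 46.3%, whereas Lox-202 and Lox-201, with the same coding bases, took 75.4% and 77.5%, and 24.6% and 22.5%.

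**Figure D2:**
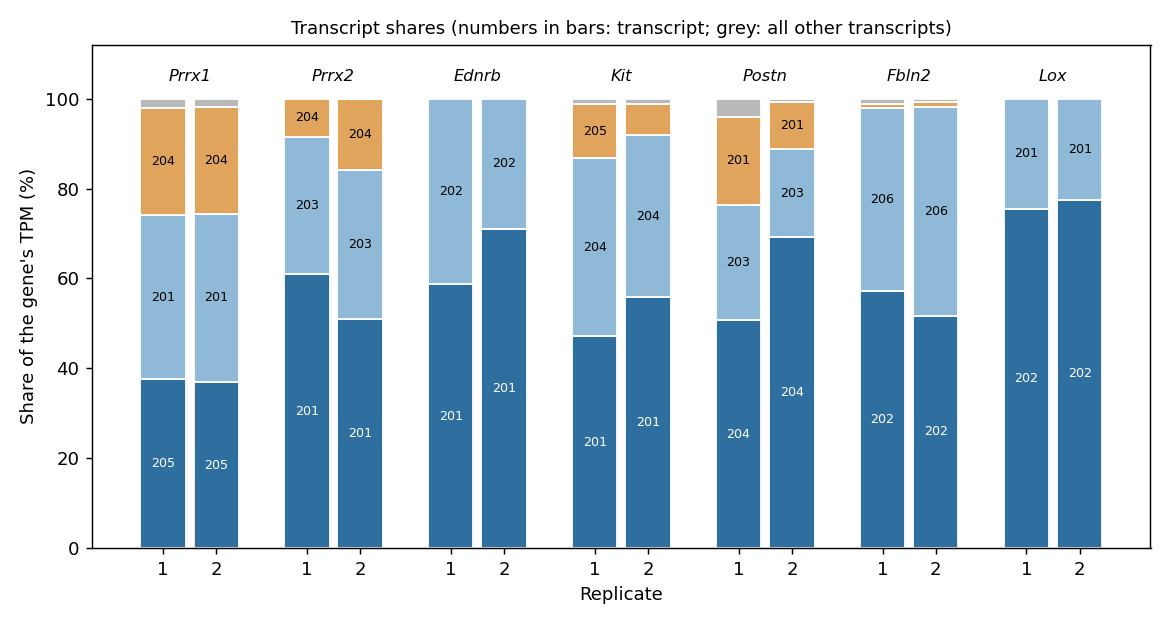
Share of each gene's TPM in percent taken by its transcripts, for the 7 genes averaging 5 TPM or more whose transcript ranked second by mean share held at least 15% in both libraries; for each gene the left bar is replicate 1 and the right bar replicate 2, and the number in a block is the transcript's. The shares of Prrx1 and Lox were alike between the libraries, while Ednrb-201 (58.7% and 71.1%) and Postn-204 (50.7% and 69.1%) were smaller in replicate 1.

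The regulators were set against the matrix genes within each library. The median of log2(TPM + 1) over the 15 crest and mesenchyme regulators minus that over the 14 matrix genes was -0.39 in replicate 1 and 0.10 in replicate 2, or -0.14 ± 0.35 (SD, n = 2). The sign differed between the libraries and the SD exceeded the mean, so the typical regulator and the typical matrix gene were not apart beyond the spread. The summed TPM of the regulators was 128 in both libraries, beside 347 in replicate 1 and 279 in replicate 2 for the matrix genes. The regulator sums were nearly equal in the libraries and the matrix sums were not.

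The differences between the libraries were then taken gene by gene as the ratio of scaled counts, replicate 1 over replicate 2, for the 29 genes averaging 1 TPM or more. Their median log2 ratio was 0.26, beside -0.01 over all 14768 genes with such a mean. Higher in replicate 1 at any size were 21 of the 29, beside 49.0% of all genes. The matrix genes were higher in replicate 1 for 12 of 12, with a median log2 ratio of 0.37, and the signalling genes for 4 of 4, with 0.17. Of the matrix genes Eln reached the mean of 1 TPM through replicate 1 alone, and over the 11 genes detected in both libraries 11 were higher in replicate 1, with a median of 0.35. The crest regulators were higher for 2 of 5, with -0.16, the mesenchyme regulators for 2 of 6, with -0.09, and the pigment genes for 1 of 2. The count for the matrix genes stayed at 12 of 12 with every other scaling tried, and that of the mesenchyme regulators was 3 of 6 with the plain TPM ratio.

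Past 2-fold were 4 of the 29 genes, Dcn, Eln, Ogn and Osr1, which is 13.8%, beside 3.22% of all genes. Eln passed the threshold on the mean through replicate 1 alone, where it is higher, and without such genes the count was 3 of 28 (10.7%), beside 1.69% of 14206 genes. All 4 were higher in replicate 1, beside 2.04% of all genes that were at least 2-fold higher there, and none was at least 2-fold higher in replicate 2, beside 1.18%. Eln was 2.48-fold higher (log2 ratio 1.31, exact 95% counting interval 0.82 to 1.83), and Ogn 2.45-fold (1.29, interval 0.99 to 1.61). Osr1 was 2.22-fold higher (1.15, interval 0.92 to 1.38), and Dcn 2.15-fold (1.10, interval 0.90 to 1.31). The 4 genes had 49 to 616 counts per library, and for each the interval reached below 2-fold. Below a mean of 1 TPM, Erbb3 was 2.02-fold higher in replicate 2 (interval -1.36 to -0.68) and Barx1 3.88-fold (-3.46 to -0.82). Pitx1 and Thy1 had counts in replicate 2 alone, while Tfap2e and Mfap5 were 2.42-fold and 2.68-fold higher in replicate 1. With no filter, 6 genes were thus higher in replicate 1 and 4 in replicate 2, beside 2753 and 2429 of all 24725 genes with counts. With 1 library on each side, the difference between pools of embryos has no replicate check.

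**Figure D3:**
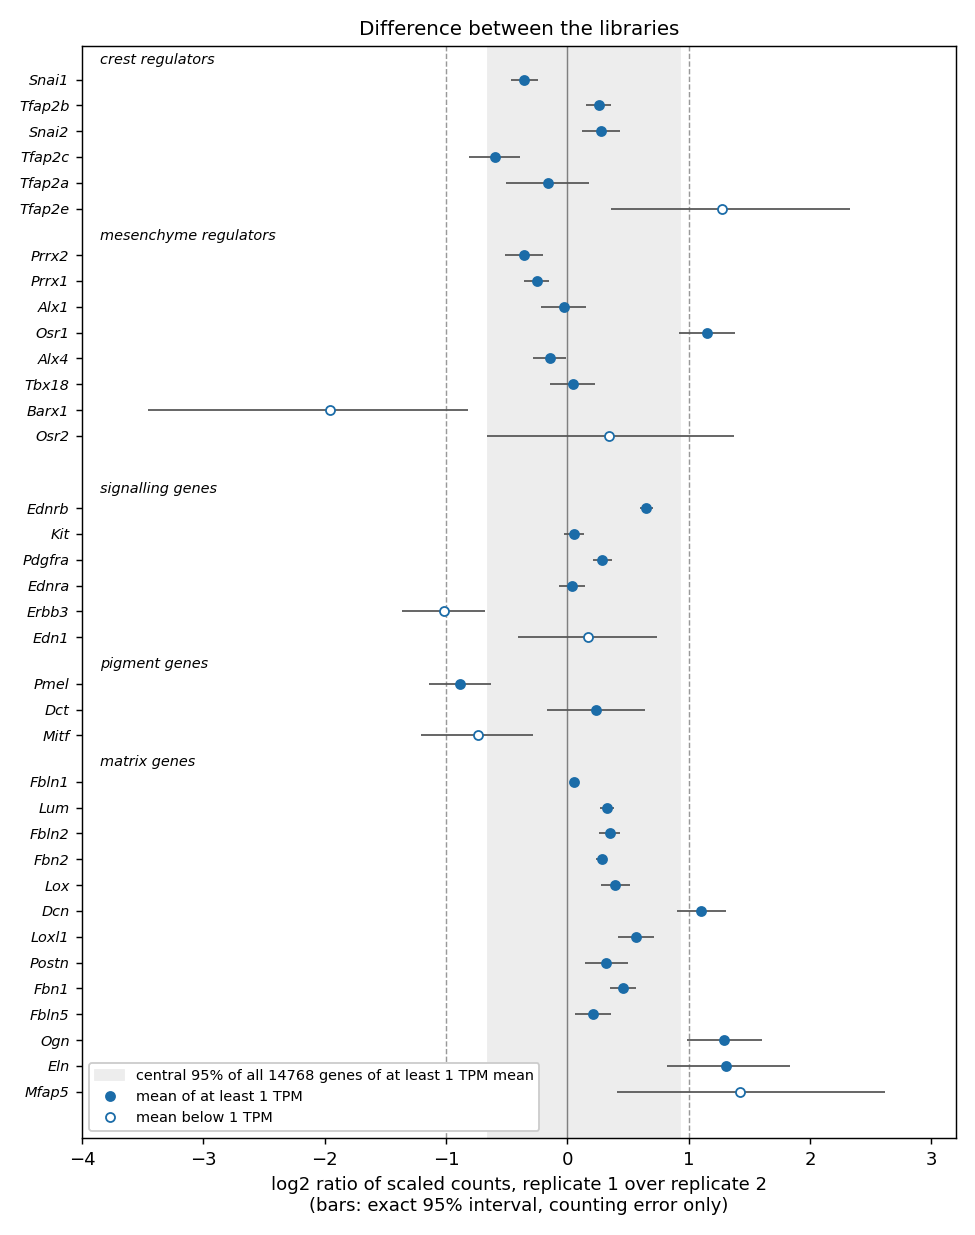
Log2 ratio of scaled counts, replicate 1 over replicate 2, with exact 95% intervals for counting error only, by role; filled points average 1 TPM or more, dashed lines mark 2-fold, the grey band spans the central 95% of all 14768 genes, and Pitx1 and Thy1, with 0 counts in replicate 1, are left out. All 12 filled points of the matrix genes lie to the right of 0, from 0.06 for Fbln1 to 1.31 for Eln, while the regulators lie on both sides.

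The interval excluded equal levels for 23 of the 29 genes, beside 56.9% of all genes, so this was common among genes of any kind. PCR copies are not independent molecules, so the counting error can be larger than the interval allows. Ednrb had a log2 ratio of 0.65 (interval 0.60 to 0.70), Loxl1 of 0.56 (0.41 to 0.71) and Fbn1 of 0.46 (0.35 to 0.56). Lum stood at 0.32 (0.27 to 0.38) and Fbln1, the most abundant, at 0.06 (0.02 to 0.10), the closest to equal of the 12 matrix genes. Lower in replicate 1 were Pmel at -0.88 (-1.14 to -0.63), Tfap2c at -0.60 (-0.81 to -0.39), Prrx2 at -0.36 (-0.52 to -0.20) and Snai1 at -0.36 (-0.47 to -0.24). Alx1 at -0.03 (-0.22 to 0.15), Tbx18 at 0.04 (-0.14 to 0.23), Ednra at 0.04 (-0.07 to 0.15) and Kit at 0.05 (-0.03 to 0.14) had intervals that spanned equal levels.

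Tfap2b differed with the unit. Its TPM ratio, from 28.3 in replicate 1 and 20.8 in replicate 2, was larger than the ratio of its scaled counts, 1.20-fold, from 1658 and 1500 counts. Its transcripts were looked at after this was seen: the short retained-intron transcript Tfap2b-205, with an effective length of 511 nt, took 25.7% of the TPM in replicate 1 and 14.8% in replicate 2. For this gene the mix of transcripts thus enters the TPM, and the count ratio is the smaller value. The plain TPM ratio was the larger one over all genes too, with a median log2 of 0.07 beside -0.01 for scaled counts. How much of the gap in Tfap2b came from its transcripts was not tested.

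Lists of genes of other cells and of related functions, 15 in all, were read beside these ratios. All 9 collagen genes averaging 1 TPM or more were higher in replicate 1, with a median log2 ratio of 0.64 and sums of 764 and 514 TPM. Col3a1 had 416 TPM in replicate 1 and 317 TPM in replicate 2, Col1a1 had 149 and 72.6 TPM, and Col1a2 had 119 and 72.5 TPM. By scaled counts Col6a3, with 4.55 and 2.51 TPM, was the one collagen past 2-fold, at 2.31-fold, and Col1a1 stood at 1.95-fold. Of 15 other fibroblast matrix genes 12 were higher in replicate 1, with a median of 0.21 and summed TPM of 927 and 767 over the list's 20 genes. Sparc had 372 and 298 TPM, Mfap2 271 and 221 TPM and Fn1 75.4 and 71.9 TPM, and Fmod, a proteoglycan of the same family as Lum, had 5.46 and 2.40 TPM.

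The pericyte and smooth muscle list was higher in replicate 1 for 4 of 4 genes averaging 1 TPM or more, and for 3 of the 3 detected in both libraries, with a median of 0.69 over the 4 and summed TPM of 61.8 in replicate 1 and 39.2 in replicate 2. Acta2 had 32.1 and 18.2 TPM, Tagln 20.6 and 17.1 TPM, and the pericyte channel gene Kcnj8 4.89 and 1.91 TPM. The neuron list was higher for 8 of 8, with a median of 0.60 and summed TPM of 1389 and 888. Tubb3 had 562 and 364 TPM, Gap43 171 and 111 TPM, Stmn2 175 and 101 TPM, and Dcx, past 2-fold, 44.5 and 19.6 TPM. The neuroepithelial list was higher for 7 of 8, with a median of 0.13 and summed TPM of 2891 and 2385.

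The blood list was higher in replicate 1 for 0 of 8 genes, with a median of -0.37 and summed TPM of 11370 in replicate 1 and 13307 in replicate 2. Its embryonic globin genes were the highest of all lists, with 6297 and 6913 TPM for Hbb-y, 2555 and 3627 TPM for Hbb-bh1 and 2418 and 2649 TPM for Hba-x. No gene of the collagen, pericyte, neuron, neuroepithelial or blood list was listed at 0 in either library, and 1 gene of the other fibroblast matrix list was at 0 in replicate 1. The part of these cells in the higher matrix genes of replicate 1 was not tested.

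**Figure D4:**
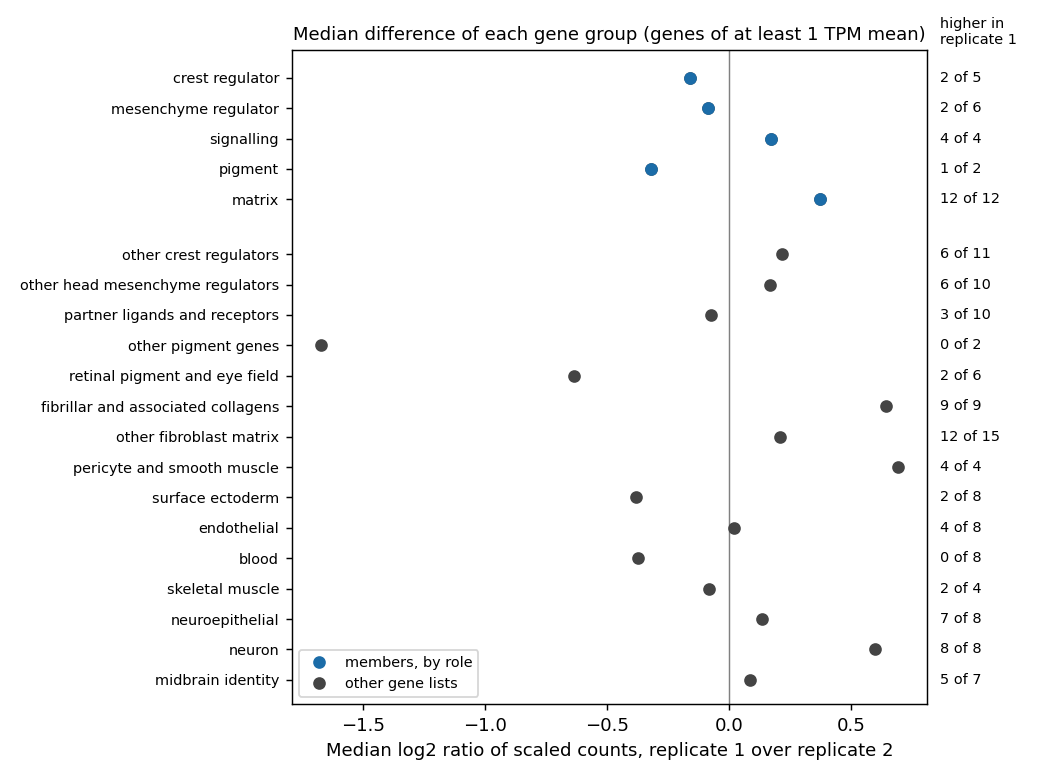
Median log2 ratio of scaled counts, replicate 1 over replicate 2, of the 38 genes by role (blue) and of 15 other gene lists (grey), over genes averaging 1 TPM or more, with the number higher in replicate 1 at the right. Matrix genes (0.37), collagens (0.64), pericyte genes (0.69) and neuron genes (0.60) lie to the right of 0. Furthest to the left are other pigment genes (-1.67, 2 genes) and retinal pigment and eye field genes (-0.64). Over genes detected in both libraries these 2 medians were -0.42 and -0.003. Surface ectoderm (-0.38), blood (-0.37), pigment genes (-0.32) and crest regulators (-0.16) also lie to the left.

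Other regulators of the crest were detected for 10 of 12 genes in both libraries. Id2 had 246 TPM in replicate 1 and 269 TPM in replicate 2, Sox9 had 91.2 and 52.5 TPM and Zeb2 had 47.6 and 39.7 TPM, all genes that the neuroepithelium also uses. Sox10, the regulator of migrating crest, glia and melanoblasts, had 0.46 TPM from 35 counts in replicate 1 and 2.15 TPM from 189 counts in replicate 2, and was the one gene of the list past 2-fold, having passed the threshold on the mean through replicate 2 alone. Erbb3, which is given above, likewise had its higher value in replicate 2, whereas Ednrb and Zeb2 had theirs in replicate 1. Of the 11 genes of the list averaging 1 TPM or more, 6 were higher in replicate 1, with a median log2 ratio of 0.22.

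Other regulators of the head mesenchyme were detected for 10 of 18 genes in both libraries. Twist2, a regulator of skin and connective tissue mesenchyme, had 7.93 TPM in replicate 1 and 10.5 TPM in replicate 2, and Dlx5, a homeobox gene of the jaw arches, had 7.46 and 3.78 TPM. Of the 10 genes averaging 1 TPM or more, 6 were higher in replicate 1, with a median log2 ratio of 0.17, and none was 2-fold apart.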

How the data were processed

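Per the labels, the libraries are total RNA-seq of 2 pools, although a manual of the SMARTer Ultra Low kit is among the linked protocols, so strand use is taken as unknown. Per the file headers and descriptions, the tables are on mm10 with GENCODE M4. Which aligner and quantifier were used is not given in the sources used here. The authors' deposited expected counts are estimates that divide shared reads among transcripts and genes, and they were rounded here for ratios. The deposited TPM and FPKM values divide counts by effective length, which was the length less 99 nt. The credible bounds of TPM that the authors deposited, a signal in TPM units, were read for precision. The deposited isoform percent is a transcript's share of its gene's TPM. Names and positions came from GENCODE M21 on GRCm38, and 42462 of 43346 identifiers matched. The 97 spike-in and 26248 tRNA rows stayed out of library sizes.

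With edgeR 4.0.16, TMM factors of 1.01 (replicate 1) and 0.988 (replicate 2) scaled the counts, with 0.5 added in ratios. Intervals are exact Clopper-Pearson 95% intervals. They and the floor of 3 counts cover counting error only, since PCR copies are not independent molecules. The procedure was tested on simulated data. Alternatives were DESeq2 1.42.0 size factors, other units, thresholds and pseudocounts, and each replicate left out, with a threshold of 1 TPM in both libraries added after seeing the data. The 38 genes, the 15 lists of 153 genes and 14 gene pairs were chosen with earlier results of these data known. Named were all 38 genes, the pairs, of each list the 3 genes with the highest mean TPM and any 2-fold apart that averaged 1 TPM or more, and transcripts of genes averaging 5 TPM or more whose second transcript held at least 15% in both libraries. A gene that this rule took is not reported here, and the counts and medians of its list include it. R 4.3.3 and Python 3.11.15 were used, with pandas 2.3.3, scipy 1.17.1 and numpy 2.4.6.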

Additional observations from a re-analysis of the deposited data

How the results depend on the processing

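The count of 28 detected genes became 25 to 33 with other thresholds or units, and 29 and 30 with 1 replicate left out. The median of regulators minus matrix genes, -0.14, was 0.19 with the 6 crest regulators alone and -0.60 with means in place of medians. With 1 replicate left out it ranged from -0.39 to 0.10, with 0.10 without replicate 1, so its sign depends on the library. Other pseudocounts and units, detected genes only and all 24 genes other than matrix kept its sign. The 4 genes past 2-fold remained the same 4 with DESeq2 size factors, TPM, FPKM and posterior mean counts. Past 1.5-fold were 7 (24.1%), 5 of them higher in replicate 1 and 2 in replicate 2, beside 1423 (9.64%) of all genes. At a mean of at least 5 TPM there were 2 (9.52%), beside 113 (1.04%). With no filter there were 10 (26.3%), 6 higher in replicate 1 and 4 in replicate 2, beside 5182 (21%), a share near theirs. With at least 1 TPM in both libraries, chosen after seeing the data, there were 3, beside 240 of all genes. The plain TPM ratio moved the median of all genes to 0.07. None of the 14 gene pairs changed its order in either library or unit. No paired analysis was possible because there is 1 group and so no groups to pair. Depth limits Tfap2e, Barx1, Pitx1, Osr2, Thy1 and Mfap5, each at 32 counts or fewer per library.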

Other observations

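The remaining lists held cells that a midbrain dissection can carry along. Surface ectoderm genes were detected for 8 of 10, with summed TPM of 54.9 in replicate 1 and 69.7 in replicate 2 and a median log2 ratio of -0.38, and 2 of 8 were higher in replicate 1. Krt8 had 17.0 and 20.2 TPM, Krt18 had 9.92 and 18.4 TPM and Wnt6 had 7.34 and 9.39 TPM. Tfap2a and Tfap2c, AP-2 genes that the ectoderm shares with the crest, had 1.52 and 1.60 TPM and 3.72 and 5.33 TPM. Endothelial genes were detected for 8 of 8, with 58.0 TPM in replicate 1 and 72.9 TPM in replicate 2 for Egfl7, 24.1 and 26.8 TPM for Esam and 24.97 and 25.44 TPM for Cldn5, and 4 of 8 were higher in replicate 1 with a median of 0.02. Skeletal muscle genes were detected for 3 of 8. Tnnt1 had 5.09 and 3.98 TPM, Actc1 3.02 and 2.60 TPM and Myf5 2.39 and 2.79 TPM. Des had 0.97 and 2.37 TPM and passed the threshold on the mean through replicate 2 alone. The rest of the list, named after the values were seen, was low. Myod1 had 2 and 0 counts, Myog 1 and 3, Tcf21 1 and 1, and Msc 12.7 and 54. Of the 7 midbrain identity genes averaging 1 TPM or more, 5 were higher in replicate 1, with a median of 0.08.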
